A study of Mus musculus with 2 samples.

Results

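The immunoglobulin kappa light chain V genes (Igkv) of the mouse are described here by where CTCF was bound around them in embryonic limb. The members were the GENCODE M21 genes on chromosome 6 whose symbol starts with Igkv, of any biotype, and they numbered 160 of 55413 annotated genes. CTCF sites were the peaks of the authors' optimal list whose summit lay from 200 kb before the first to 200 kb past the last Igk gene, on the mm10 build (GRCm38). This window, chr6:67355497-70926966, held 30 of 49970 peaks. Binding was measured by ChIP-seq with an antibody to CTCF on limbs of B6NCrl mouse embryos of 14.5 days, of both sexes, pulverised and pooled from several dissections. The series has 2 libraries, replicate 1 and replicate 2, and a single group with no treatment or altered genotype in the labels. The labels number the 2 libraries as biological replicates but give both the same tissue pool, so the spread between them may be technical. Peak lists hold no expression values, so the tissue could not be checked against marker genes, and a peak in limb tissue says nothing about which of its cells hold it.

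A kappa light chain gene is assembled in developing B cells, when the RAG recombinase joins 1 V gene to 1 J gene. Each V and J gene carries a recombination signal made of a heptamer, a spacer and a nonamer. V genes of the kappa locus lie in both orientations, so joining to J deletes the DNA between them for some V genes and inverts it for others. CTCF is the zinc finger protein that, with cohesin, anchors chromatin loops, and its motif has a direction: loops tend to form between sites whose motifs point at each other. In B cell precursors, elements between the V and J genes named Cer and Sis are known to bind CTCF and to affect which V genes are used. The files used here do not mark those elements, so no peak was assigned to either.

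The sequences of the CTCF sites that carry the description below are printed first. Each is 40 bases on the strand of its motif, from 5′ to 3′ in mm10, with the 20 bases of the best CTCF motif match in capitals. The first 4 are the peaks between the V and J genes, from the V side to the J side, numbered as in the window.
Peak 17, chr6:70709455-70709494, reverse strand: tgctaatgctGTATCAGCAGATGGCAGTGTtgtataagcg
Peak 18, chr6:70709862-70709901, reverse strand: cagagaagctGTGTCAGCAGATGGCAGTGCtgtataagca
Peak 19, chr6:70713299-70713338, forward strand: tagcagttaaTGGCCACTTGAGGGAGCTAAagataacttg
Peak 20, chr6:70714389-70714428, forward strand: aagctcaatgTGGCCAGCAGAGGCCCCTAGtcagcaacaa
The next 4 include the 3 strongest peaks among the V genes (9, 7 and 15) and the 3 that lay nearest to a V gene (10, 9 and 15).
Peak 7, chr6:67812665-67812704, reverse strand: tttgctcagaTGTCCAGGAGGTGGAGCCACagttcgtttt
Peak 9, chr6:68668583-68668622, forward strand: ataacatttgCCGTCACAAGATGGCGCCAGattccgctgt
Peak 10, chr6:68964206-68964245, reverse strand: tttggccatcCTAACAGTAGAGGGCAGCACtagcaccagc
Peak 15, chr6:70147169-70147208, reverse strand: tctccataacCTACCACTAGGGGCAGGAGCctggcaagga
The last 4 are peaks among the V genes that resemble each other, and they were chosen after that likeness was seen.
Peak 11, chr6:69733051-69733090, reverse strand: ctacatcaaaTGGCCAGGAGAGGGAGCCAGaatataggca
Peak 12, chr6:69758803-69758842, reverse strand: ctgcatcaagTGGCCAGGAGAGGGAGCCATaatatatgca
Peak 13, chr6:69828822-69828861, reverse strand: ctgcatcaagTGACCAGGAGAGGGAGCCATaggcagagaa
Peak 14, chr6:69914966-69915005, reverse strand: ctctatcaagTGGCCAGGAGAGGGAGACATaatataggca
The motif was learned from the 1000 strongest peaks of odd-numbered autosomes, which leaves out chromosome 6, and its most frequent base at each position reads TGGCCACCAGGGGGCGCTAT. The core of peak 12 has 15 of its 20 bases, as do those of peaks 19 and 20, and the core of peak 10 has 9. These letter counts do not rank the sites as the motif score, in log2 odds, does. The score was 18.174 at peak 12 and 16.539 at peak 10. It was 13.972 at peak 19 and 12.257 at peak 20, both below 14.503, the median of optimal peaks with a motif. Peaks 17 and 18, with 10 bases each, scored 14.503 and 14.551.

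Sequences that match recombination signals lie at both ends of the V–J interval. The V gene nearest to J, Igkv3-1, ends in a signal with a 12 base spacer at chr6:70704178-70704205, and Igkj1 begins with one with a 23 base spacer at chr6:70722523-70722561, read on the reverse strand. Capitals mark the heptamer and the nonamer.
Igkv3-1 signal: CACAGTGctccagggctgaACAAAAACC
Igkj1 signal: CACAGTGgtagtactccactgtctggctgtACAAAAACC
Both match the heptamer CACAGTG and the nonamer ACAAAAACC at every base. A signal with a 12 base spacer, on the gene's own strand at its 3′ end and with at most 2 heptamer and 4 nonamer mismatches, was found at 98 of 100 Igkv entries annotated as genes and 30 of 60 annotated as pseudogenes. The 2 such genes without one were Igkv1-131 and Igkv4-62. The same search found one at 1.84% of the 977 other genes of at most 1 kb on chromosome 6. Of the 5 J genes, 4 had a signal with a 23 base spacer within the same limits, and Igkj3 did not. A match describes the letters and does not show that a signal is used.

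The V genes filled a long and CTCF-poor stretch. From Igkv2-137, the V gene farthest from J, to Igkv3-1 they spanned 3148.681 kb, chr6:67555497-70704177, with 75 V genes on the strand of J and 85 inverted, in 20 numbered subgroups. The span also holds 16 other entries annotated as immunoglobulin V, whose symbols do not start with Igkv. No V gene count or V gene distance given here includes them. The V span held 12 optimal peaks, 3.81 per Mb, against 18.8 per Mb on chromosome 6 and 18.9 per Mb over all main chromosomes, a 4.95-fold lower density than the latter. Cut into non-overlapping windows of the length of the V span, the genome had 12.1% of 825 windows with as few or fewer peaks, and the median window had 50.

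CTCF sites between the V and J genes were close together instead. The V–J interval, chr6:70704178-70722561, held 4 peaks in 18.384 kb, and the stretch from Igkj1 to the constant gene Igkc held none in 4.405 kb. Of 143842 non-overlapping windows of the length of the V–J interval, 0.695% had 4 or more peaks. Each peak carries a signal value that the authors' peak caller gave it, which can be read only within a list, and no read depth is given. The median signal was 79.9 for the 4 V–J peaks, from 50.4 to 121.1, and 29.7 for the 12 V-span peaks, from 17.3 to 153.3, against 58.4 for all optimal peaks.

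Outside the locus the density differed between the sides. The 200 kb flank before the V genes held 4 peaks, 20 per Mb with a median signal of 52.3, and the 200 kb flank past Igkc held 10, 50 per Mb with a median of 163.9. The downstream flank contains Rpia, which encodes a pentose phosphate enzyme, and Eif2ak3, which encodes the stress kinase PERK. The map of peaks along the locus shows the 3 zones side by side.

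**Figure D1:**
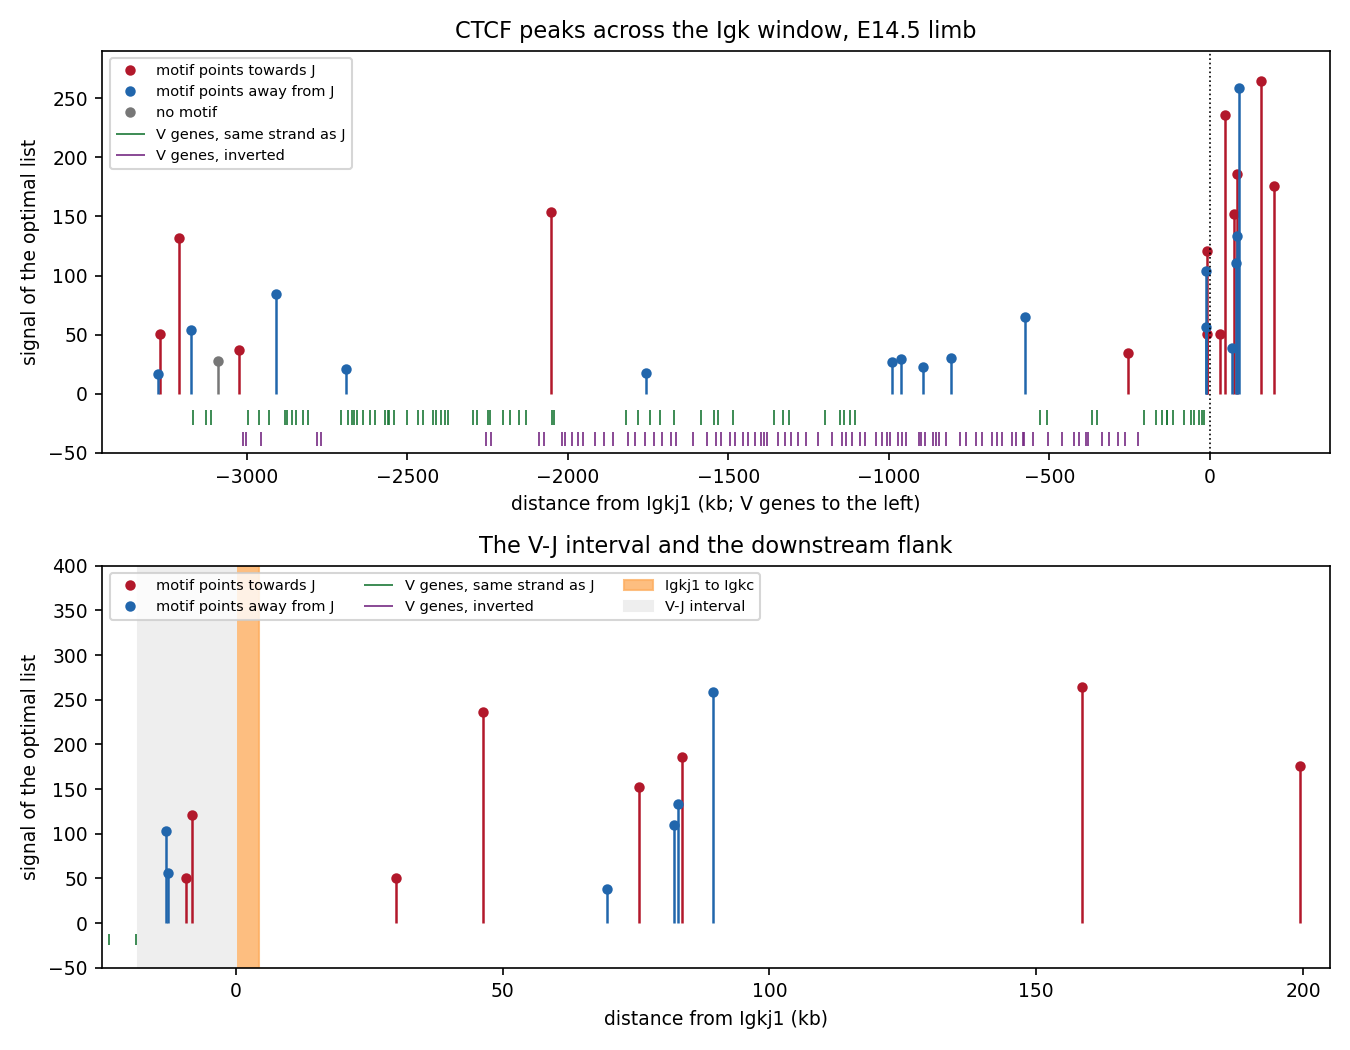
Signal of each of the 30 optimal peaks (vertical lines with points, in units of the list) against distance from Igkj1 in kb, for the window and, below, for the V–J interval and the downstream flank. Colours give the direction of the motif, and ticks under the axis mark V genes on the strand of J and inverted V genes. The 12 V-span peaks are sparse, the 4 V–J peaks crowd into the shaded interval, and the 10 downstream peaks reach 264.7.

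In the window, agreement between the 2 libraries depended on how deep their lists were read. All 30 peaks had a summit within 100 bp in both full replicate lists, beside 97.5% of all optimal peaks. The optimal list was itself made from both replicates, so this count is partly set by that step. A stricter reading, a summit among the 49970 strongest peaks of each replicate, held for 26 of the 30, for all 4 V–J peaks and for 9 of the 12 V-span peaks. Over the main chromosomes it held for 40581 of 49959 optimal peaks. The log2 ratio of replicate 1 to replicate 2, each scaled by its median over the optimal peaks, had an SD of 0.22 over the V–J peaks, 0.40 over the V-span peaks and 0.50 over all optimal peaks. The largest difference in the window was 0.69 on that scale, at peak 12, which was higher in replicate 2.

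**Figure D2:**
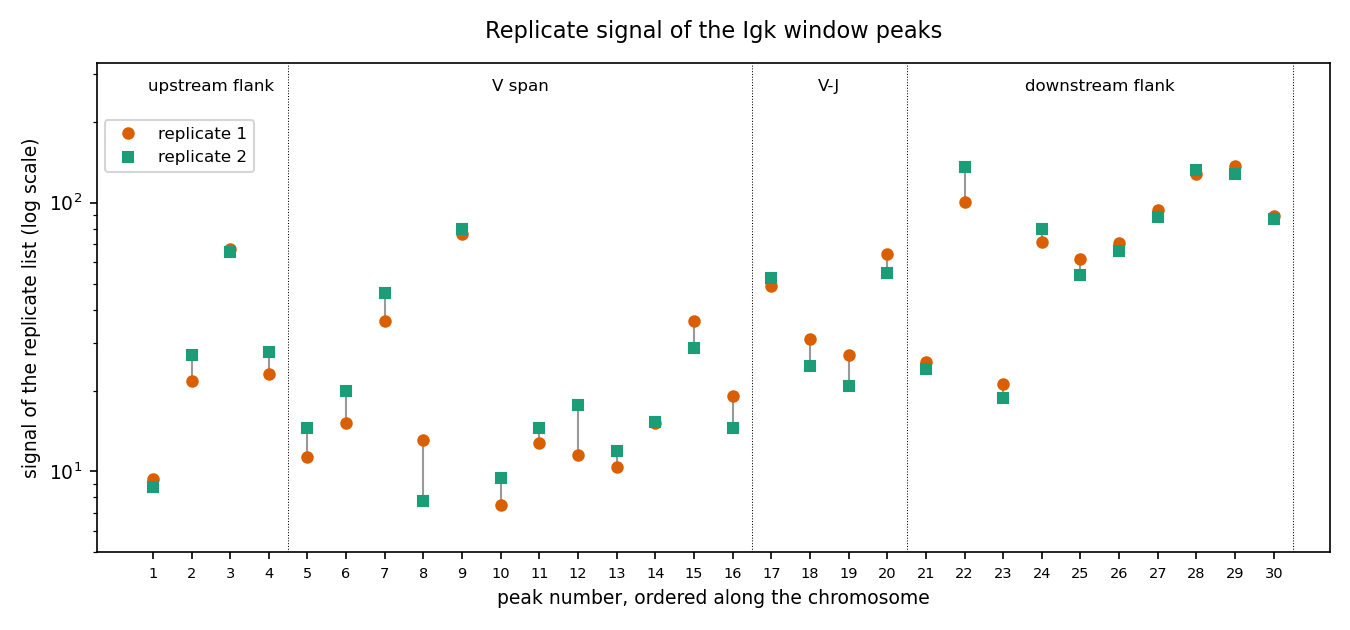
Signal of the 30 peaks in the lists of replicate 1 (circles) and replicate 2 (squares) on a log scale, in chromosome order and divided by region, with a line joining the 2 values of a peak. Peak 8, at 13.04 and 7.74, and peak 12, at 11.5 and 17.7, have the longest lines.

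Peak 20 was the strongest site between V and J. Its summit at 70714415 lay 8147 bp before Igkj1, with a signal of 121.1, and values of 64.6 in replicate 1 and 54.5 in replicate 2. Peak 17 was next, with its summit at 70709474, 5297 bp past Igkv3-1, a signal of 103.4, and values of 48.8 and 52.6. Peak 18, at 70709882, had 56.4, with 31.1 and 24.7 in the replicates. Peak 19, at 70713313, had 50.4, with 27.0 and 20.7. Within each library the order was the same, with peak 20 highest, then 17, 18 and 19.

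The 4 V–J sites formed a divergent set of pairs. Peaks 17 and 18 had motifs on the reverse strand, which point towards the V genes, and peaks 19 and 20 had motifs on the forward strand, which point towards J. Within the first pair the summits lay 408 bp apart, then 3431 bp followed, and 1102 bp separated the second pair, so that all 4 fell within 4941 bp. The sequences around peaks 17 and 18 aligned on the same strand with 84.5% identity over 142 bases, and their printed cores share a run of 16 letters, TCAGCAGATGGCAGTG. The nearest peak on the V side, peak 16, had a forward motif, so it and peak 17 pointed at each other across 240.7 kb and 13 V genes. The nearest peaks past Igkc, peaks 21 and 22, had reverse motifs and pointed back at peaks 19 and 20. Loops were not measured here.

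Among the V genes, peak 9 was the strongest site. It had a signal of 153.3, with 76.2 in replicate 1 and 79.6 in replicate 2, at 68668610, 2552 bp from Igkv2-95-1, in sequence that the assembly marks as repeat, as are the summits of peaks 1 and 6. Peak 7, at 67812686, had 84.1, with 36.2 and 46.2, and lay 21175 bp from Igkv14-130. Peak 15, at 70147202, had 65.2, with 36.2 and 28.9, and lay 3036 bp from Igkv8-28. In both libraries peak 9 stood above every other V-span peak. Peaks 7 and 15 were at the same level in replicate 1, and peak 7 was higher in replicate 2. These 3 were the only V-span peaks above the median signal of all optimal peaks.

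The other 9 V-span peaks were weak. Towards the far end, peak 5 at 67631776 had 27.3 (11.4 and 14.5 in replicates 1 and 2), 21268 bp from Igkv1-135, and peak 6 at 67699136 had 36.8 (15.1 and 19.96), 12038 bp from Igkv14-134-1. Peak 8 at 68030974 had 21.3 (13.04 and 7.74), 5838 bp from Igkv17-121. Peak 10 at 68964239 had 17.3 (7.50 and 9.48), 2232 bp from the pseudogene Igkv4-83. It was the weakest of the V span and the one nearest to a V gene. Towards J, peak 16 at 70468799 had 34.1 (19.1 and 14.6), 10763 bp from Igkv6-13. The authors' conservative list, with 48829 peaks, held 32 in the window. Of the 30 optimal peaks, 28 had a summit within 100 bp there, and peaks 8 and 10 did not. Over the main chromosomes 43743 of 49959 optimal peaks had one. The conservative list had 4 further summits: 67531195 and 67531987 in the upstream flank, with signals of 18.8 and 23.7, and 68102662 and 70342347 in the V span, with 15.8 and 20.01.

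Peaks 11 to 14 made up a row of alike sites near Igkv5 and Igkv12 genes. Peak 11 at 69733057 had a signal of 26.9 (12.8 and 14.5 in replicates 1 and 2), 5919 bp from Igkv5-48. Peak 12 at 69758820 had 29.5 (11.5 and 17.7), 5703 bp from Igkv12-46. Peak 13 at 69828845 had 22.98 (10.4 and 11.9), 4902 bp from Igkv5-43, and peak 14 at 69914987 had 29.999 (15.1 and 15.3), 14010 bp from Igkv5-39. Peak 13 was the lowest of the 4 within each library, and the order of the others differed, with peak 14 highest in replicate 1 and peak 12 in replicate 2. All 4 motifs lay on the reverse strand, which is also the strand of those V genes. Their sequences aligned to each other with 83.9% to 88.2% identity over at least 180 bases, highest for peaks 12 and 13. A further match at position 69780533, near Igkv5-45, had the same motif score of 17.4 as that of peak 13, but its site was not in the optimal list. The full lists held it, at 10.2 in the pooled one and at 6.07 and 3.82 in those of replicates 1 and 2.

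No V gene had a CTCF peak of the optimal list at its start. An optimal summit lay within 1 kb of an annotated start site of 0 of 160 V genes, with an exact 95% binomial interval from 0 to 2.28%, against 17.9% of all genes and 5.31% of genes of at most 1 kb, the size class of V genes. In the conservative list, and in the strongest peaks of replicate 1 alone, 1 V gene had one, against 17.6% and 18.3% of all genes. It was Igkv8-19, with a summit 894 bp from its start and a signal of 20.01 in the former list and 11.55 in the latter. In the optimal list no V gene had a summit within 1 kb of its body. Of the V genes, 12 (7.50%, interval 3.94% to 12.7%) had a summit within 10 kb of the body, against 50% of all genes and 29.5% of genes of at most 1 kb. The intervals cover counting error only, and neighbouring V genes share the same peaks. Across the V genes the median distance to the nearest summit was 85.4 kb, with quartiles of 33.5 and 165.6 kb, against 8.95 kb for all genes and 24.4 kb for genes of at most 1 kb.

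The V genes closest to CTCF were spread along the locus. After Igkv4-83, Igkv2-95-1 and Igkv8-28 came Igkv5-43, then Igkv3-1 at 5297 bp from a V–J peak, Igkv12-46, Igkv2-137 at 5745 bp from peak 4 of the upstream flank, Igkv17-121, Igkv5-48, Igkv12-42 at 5947 bp, Igkv12-47 at 7489 bp and Igkv6-29 at 8092 bp. At the other extreme, Igkv4-65 lay 378233 bp from any summit, Igkv12-66 370365 bp, Igkv13-64 369870 bp, Igkv12-67 359938 bp and Igkv4-63 354585 bp. These 5 stand next to each other in the middle of the longest stretch without a peak. Seen from the peaks, the 12 V-span summits lay at a median of 5878.5 bp from a V gene, from 2232 to 21268 bp, and none was inside one.

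**Figure D3:**
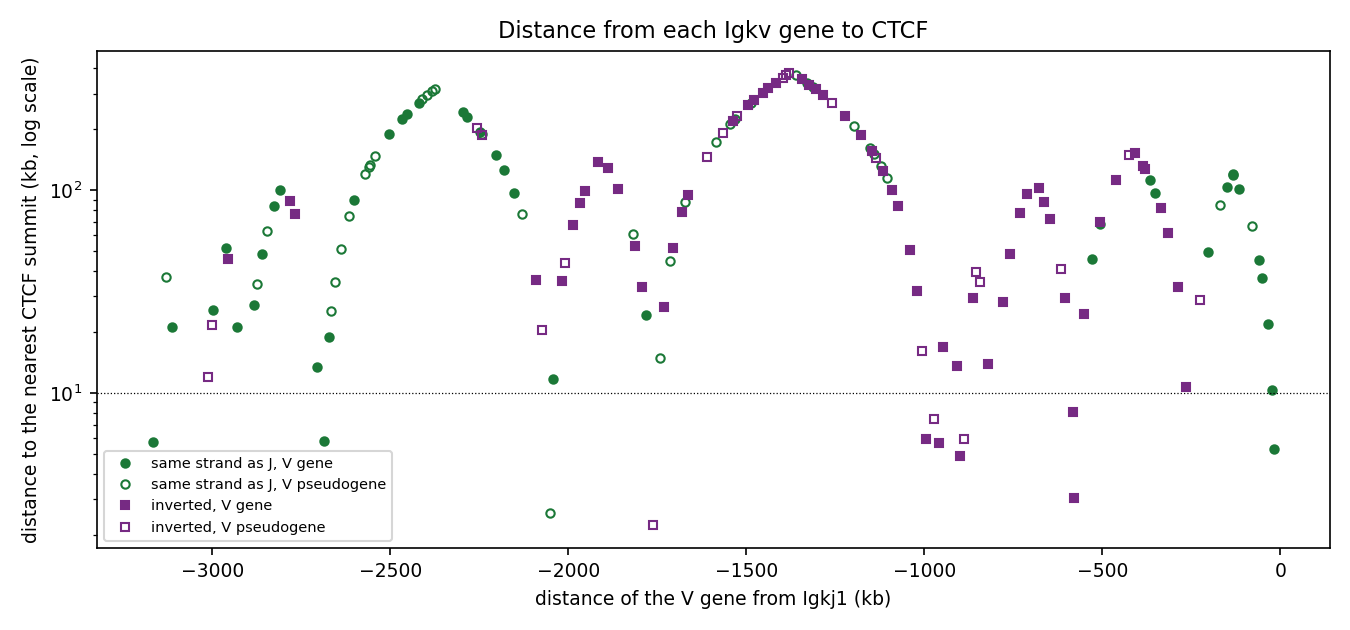
Distance from each of the 160 V genes to the nearest optimal summit (kb, log scale) against its distance from Igkj1 (kb), with circles for V genes on the strand of J, squares for inverted ones and open symbols for pseudogenes. The dotted line marks 10 kb, under which 12 V genes lie, and the highest arch is the stretch around Igkv4-65.

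Inverted V genes lay at a median of 78.7 kb from CTCF, with 8 of 85 within 10 kb, and V genes on the strand of J at 96.8 kb, with 4 of 75. Igkv entries annotated as genes had a median of 78.1 kb, with 8 of 100 within 10 kb, and pseudogenes 125.7 kb, with 4 of 60. The exact intervals of the shares within 10 kb overlapped in both comparisons. They treat V genes as independent, though neighbours share peaks, so the overlap does not decide whether the classes differ. Medians also varied along the chromosome. From the far end to the J end, 4 equal parts of the V span held 36, 36, 49 and 39 V genes, 4, 2, 4 and 2 peaks, and had median distances of 57.8, 82.6, 188.2 and 68.2 kb. The numbers of V genes within 10 kb of a summit were 2, 2, 5 and 3 (5.56%, 5.56%, 10.2% and 7.69%). Their intervals overlapped too, with the same limit. The part with the longest median distance also had the highest share near a peak. The third of these parts was the richest in inverted V genes, with 37 of 49. By subgroup, the 33 Igkv4 genes had a median of 156.6 kb and the 6 Igkv5 genes 15.5 kb. Igkv4 was not alone in its distance, with 157.3 kb for the 18 Igkv13 genes and 189.0 kb for the 5 Igkv15 genes.

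Long peak-free stretches accounted for most V genes. The longest ran 768.8 kb, from peak 10 at 68964239 to peak 11 at 69733057, and held 47 V genes. The next, from peak 8 to peak 9, ran 637.6 kb and held 31, and those after it ran 321.6, 295.6 and 240.7 kb and held 15, 15 and 13. Of 49939 gaps between neighbouring optimal peaks on the main chromosomes, 279 (0.559%) were as long as the longest or longer. The conservative list lacks peaks 8 and 10 and has a summit inside the stretch that follows peak 8 and another inside the one that follows peak 15, so these stretches belong to the optimal list. The median gap was 113550 bp between the V-span and V–J peaks and 18092 bp over all chromosomes.

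Nearly every site of the window carried a CTCF motif. A match within 50 bp of the summit, on either strand, reached the score that 5% of windows 1 kb away reach in 29 of the 30 peaks, beside 82.8% of all optimal peaks. The exception was peak 5. Of the 29 motifs, 13 pointed towards J and 16 away from it. In the V span 3 of 11 pointed towards J, those of peaks 6, 9 and 16, and 8 pointed away, so that forward and reverse sites were mixed along the V genes and the 4 alike peaks account for 4 of the 8.

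The V span had about as many strong motif matches per Mb as chromosome 6 in all, and fewer of them were in peaks. A strong match here scores at least the median of all optimal peaks with a motif, 14.503 in log2 odds. The V span held 45, 14.3 per Mb, against 2132 or 14.6 per Mb on chromosome 6. Of these, 9 (20%) had an optimal peak, against 55.6% on chromosome 6. The V span lacked the strongest scores: 2 of its matches reached the upper quartile, 0.635 per Mb against 5.10 per Mb. Both have the core TCACCAGAAGGGGGCACAGC with a score of 18.7, 1 at chr6:70218315-70218334 near Igkv8-24, with a pooled signal of 10.96, and 1 at chr6:70373496-70373515 near Igkv6-17, with no entry in the pooled list. Between the median and the upper quartile, 9 of 43 (20.9%) had a peak in the V span and 608 of 1385 (43.9%) on chromosome 6. Of the matches without an optimal peak, 11 were in the pooled full list, with signals from 5.20 to 15.5, 6 of them in both replicate full lists, 4 in 1 and 1 in neither. The other 25 had no entry in any of the 3 full lists.

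Uniqueness of sequence differed between regions and between classes of match. Of all 32 base stretches starting in the V span, 57.5% occur once in the genome, against 84.8% on chromosome 6, 85.7% in the V–J interval and 48.1% in the longest peak-free stretch. With 100 bases the shares were 87.1%, 94.6%, 96.4% and 85.7%. The next longest peak-free stretch, of 637.6 kb, stood above the V span and below chromosome 6, at 63.4% with 32 bases and 88.3% with 100. The stretch from Igkj1 to Igkc, which also held no peak, was at 100% with both lengths. It is only 4.405 kb long, and even windows of the longer V–J interval length held a median of 0 peaks. Around the strong matches the median share of unique 32 base stretches was 91.8% for those with an optimal peak. It was 84.1% for those in the pooled full list without an optimal peak and 51.8% for those with no entry. With 100 bases the median was 100% in all 3 classes, but the lowest values were 65.7%, 80.4% and 0% in that order. The matches at 0%, at positions 70243460 and 70389734, had no unique stretch at either length. The V span is also richer in repeat-marked sequence (52.0% against 33.0% on chromosome 6) and has 38.7% G and C bases against 41.4%. These shares were computed after the counts of peaks were seen, read length and the treatment of reads with several placements are unknown here, and their part in the low density was not tested.

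A motif match recurs before Igkv4 genes. This was noticed in the list of matches and chosen after the values were seen. All 33 Igkv4 genes are inverted and 28 lie in the longest peak-free stretch. From 1.5 to 3 kb before the gene, on the strand of the gene, 15 of the 33 had a strong match, against 2 of the 127 other V genes (Igkv2-95-1, the site of peak 9, and Igkv8-16) and 1.64% of the 977 other genes of at most 1 kb on chromosome 6. The matches lay 1770 to 2605 bp before the gene, at a median of 2085 bp. Their 20 base cores came in 8 forms, which differ from the most common one at no more than 3 bases. The most common form, present at 6 genes, and the forms at the 3 genes whose site had any entry in the pooled list are printed here with capitals throughout, on the strand of the gene.
Most common Igkv4 core: TTAACAGTAGATGGCAGCAC
Igkv4-83, chr6:68964216-68964235: CTAACAGTAGAGGGCAGCAC
Igkv4-57, chr6:69578607-69578626: TTAGCAGTAGATGGCAGCAC
Igkv4-53, chr6:69651379-69651398: CTAACAGTAGAGGGCAGCAC
Igkv4-83 and Igkv4-53 have the same core and the same score of 16.5, and they differed in signal. At Igkv4-83 the match is that of peak 10, at 17.3, with 7.50 and 9.48 in the replicates. At Igkv4-53 the pooled full list gives 5.20 and neither replicate list has an entry. At Igkv4-57 the pooled value is 5.74, with 3.37 in replicate 1 and no entry in replicate 2. The 12 others, those with the most common core included, had no entry in the pooled list. The median share of unique 32 base stretches was 62.9% around the 15 matches, from 21.2% to 100%, and 58.2% around the 12 with no entry. With 100 bases the median was 100% and the lowest value 54.9% in both sets. The part of uniqueness in the missing entries was not tested.

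**Figure D4:**
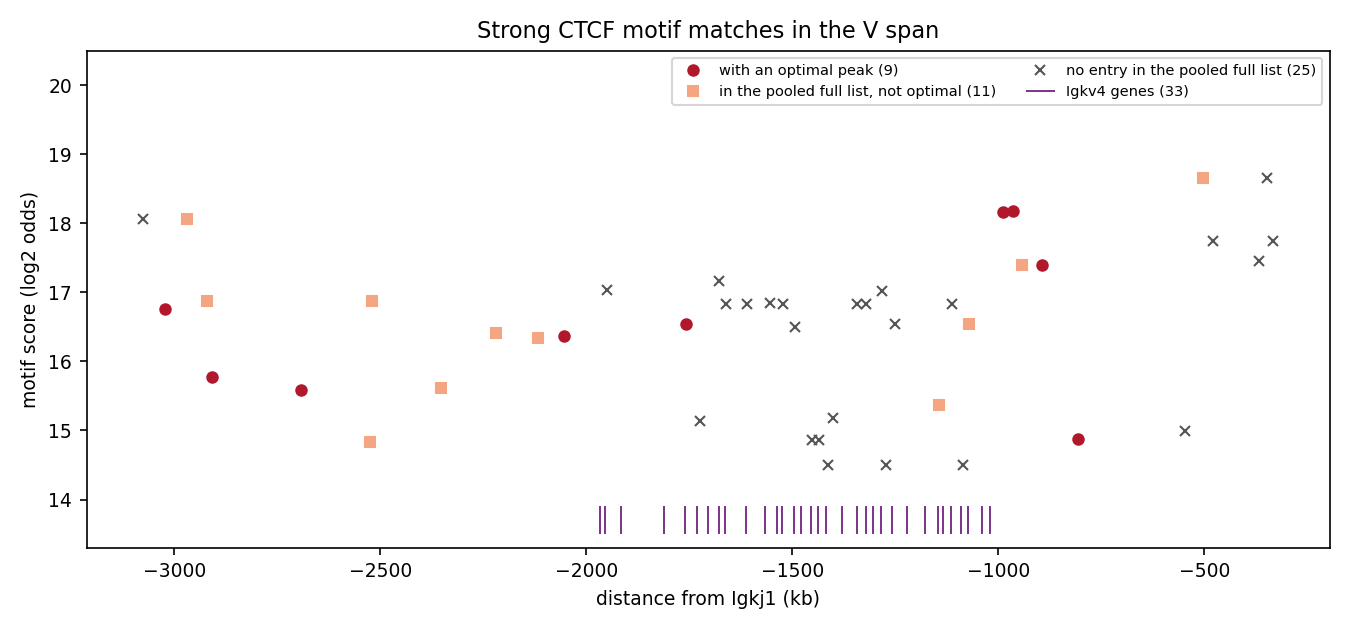
Score in log2 odds of the 45 strong CTCF motif matches of the V span against distance from Igkj1 (kb), by whether the match has an optimal peak (9, circles), is in the pooled full list but not the optimal one (11, squares) or has no entry (25, crosses), with ticks for the 33 Igkv4 genes. Crosses crowd over the Igkv4 genes, where 20 matches lie in the longest peak-free stretch and 2 of those have a pooled entry.

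Other antigen receptor loci are given beside the Igkv genes as values, with no test of a difference. Of 185 Ighv genes of the heavy chain, 5 had a summit within 1 kb of a start site and 13 (7.03%) one within 10 kb of the body, with a median distance of 416.7 kb. The 3 Iglv genes of the lambda light chain had none within 10 kb, at a median of 94.4 kb. Of 128 Trav genes of the T cell receptor alpha chain, 9 (7.03%) had a summit within 1 kb of a start site and 27 (21.1%) within 10 kb, at a median of 36.4 kb. Of 35 Trbv genes of the beta chain the counts were 3 (8.57%) and 23 (65.7%), at 6.59 kb.

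Genes that act on the kappa locus were read from lists chosen for their function. Of 16 genes of V(D)J recombination, 7 (43.8%) had an optimal summit within 1 kb of a start site, beside 33.4% of protein-coding genes. The strongest were Nhej1, an end-joining factor, at 182.6 (103.1 and 79.1 in replicates 1 and 2), Polm, a polymerase that fills junctions, at 175.3 (86.5 and 87.6), and Lig4, the ligase of end joining, at 89.9 (44.5 and 45.6). Rag1 and Rag2, which encode the recombinase, had none, nor did Dclre1c, which opens hairpin ends, or Dntt, which adds bases to junctions. Of 20 regulators and receptor genes of B cells, 4 (20%) had one. Those were Bcl11a at 95.7 (53.6 and 44.3), Vpreb1 of the surrogate light chain at 36.9 (18.6 and 19.9), Tcf3 at 27.1 (13.6 and 12.4) and Irf8 at 20.3 (10.1 and 9.81). Blnk and Btk, which signal below the B cell receptor, had none. These counts are small and are given as descriptions.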

How the data were processed

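Peak lists of CTCF binding in 2 libraries of 1 group were used as deposited. Per the notes deposited with the libraries, each replicate list was made from filtered alignments of its own library with 1 further file, the pooled list from both libraries, and the conservative and optimal lists, named as thresholded on the irreproducible discovery rate, from the replicate and pooled lists and 1 further file. The aligner, the caller of peaks, the control and the cut-offs stay unnamed in the labels and headers used here. A peak's deposited signal is the authors' own value on a scale particular to its list, with an unstated normalization. Replicates are compared only through values of their own lists. Read depth is unknown, and 0 value columns were left without a sample. Each full list holds 300000 peaks, so its weak entries fill a fixed length.

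The members and gene lists were chosen with earlier results of these data known. Summits were compared with GENCODE M21 models on GRCm38. Replicate values are the nearest summit within 100 bp. The motif matrix was refined in 10 rounds, and thresholds came from windows 1 kb from the summits. Named items were all window peaks, the V genes nearest to and farthest from J, the 5 farthest from any summit, and for each gene list the 3 strongest promoter peaks and the first 2 symbols without one. V genes within 10 kb of a summit, the alike peaks, the Igkv4 matches, the matches of highest score, Igkv5-45, the genes without a recombination signal, Rag1, Rag2 and Irf8 were added after their values were seen. Sequence identity was that of local alignments (Biopython 1.88), and genome access used samtools 1.23.1 with Python 3.11.15, numpy 2.4.6, pandas 2.3.3 and scipy 1.17.1. No test between groups was possible with 1 group. Matching, motif, distance and uniqueness steps were tested on simulated data. Alternatives were other peak lists, single replicates, the strongest 50% of peaks, flanks, distances, gene sets and motif settings.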

Additional observations from a re-analysis of the deposited data

How the results depend on the processing

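Over the alternatives, 34 values stayed within the limits set and 22 moved. Some alternatives change how much is counted, such as other flanks or distances. Why each value moved was not tested. With the strongest 50% of optimal peaks, the window held 14 peaks, the V–J interval 2 and the V span 3, 4 V genes had a summit within 10 kb, V genes lay at a median of 243.1 kb, V-span peaks at 3.04 kb from a V gene, and 14 peaks had a motif, 8 of them towards J. Without flanks the window held 16 peaks with a median signal of 35.4, with 500 kb flanks 48 with 69.5, the V span alone had a median of 29.7, and the conservative list gave 52.4. Within 5 kb of a start site there were 4 V genes, within 5 kb of the body 4 and within 25 kb 30. No share over all genes is given at these distances, so the counts are not set against a background. With V genes that are not pseudogenes, V-span peaks lay at 11.3 kb. In the conservative list, and without replicate 2, 1 V gene, Igkv8-19, had a summit within 1 kb of its start (894 bp, at 70342347, signal 20.01 and 11.55). The shares of all genes in those settings were 17.6% and 18.3%. The cause of this call was not tested. Leaving out each replicate in turn gave 27 to 30 window peaks, 4 V–J peaks, 10 to 11 V-span peaks and 26 to 27 motifs, 14 towards J. It gave 0 to 1 V genes at the start, against 18.1% to 18.3% of all genes. Within 10 kb it gave 10 to 11 V genes, against 50.2% to 50.3% of all genes. The median V gene distance was 89.3 kb without replicate 2 and 126.8 kb without replicate 1, and V-span peaks lay 5.91 to 8.35 kb from a V gene. No paired analysis was possible because the series has a single group. With 2 libraries and no read depth, weak sites such as peaks 8 and 10 rest on few measurements, and a site without a peak is below what these lists call, not shown to be unbound.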
